A study of Homo sapiens with 10 samples.

Results

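Short interspersed elements (SINEs) are short repeated DNA sequences, and the 57 SINE families described here are every repeat row of the deposited count table whose class field reads SINE. They stand among 1181 repeat families and 61832 rows in all. By name they fall into 25 AluY families, 17 AluS families, 4 AluJ families, the 4 Alu monomers FAM, FLAM_A, FLAM_C and FRAM, and 5 MIR families. The other 2 are an Alu row with no subfamily and AmnSINE1, an element shared across amniotes. MIR stands for mammalian-wide interspersed repeat and has nothing to do with microRNA. RNA was sequenced from 10 libraries in 5 groups of 2, with 48 h as the labelled exposure throughout. HT29 cells, which derive from a human colorectal cancer, received 10 µM of VXN in the HT29 VXN group. The t-hESC cells, labelled as transformed pluripotent stem cells, received 1 µM of BIX or 10 µM of VXN. Control cells of each line, HT29 DMSO and t-hESC DMSO, received the solvent. The labels' treatment field names DMSO for every sample, so the groups were read from the sample titles. VXN is a code that the labels leave unexpanded. BIX is a usual short name for an inhibitor of the histone methyltransferases G9a and GLP, which place H3K9me2, the mark named in the series title.

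Alu elements are primate SINEs that derive from 7SL RNA, the RNA of the signal recognition particle. AluJ is the oldest branch, AluS the intermediate one and AluY the youngest, and AluYa5 and AluYb8 belong to the branches that still move in the human genome. FAM, FLAM and FRAM are fossil monomers, from the time before the dimeric Alu arose, and MIR elements are older, tRNA-derived SINEs found across mammals. A SINE has its own RNA polymerase III promoter, but many copies lie inside genes, so a read that falls in one can also come from an intron or an untranslated region of a gene transcript. H3K9 methylation is among the marks that keep repeats silent.

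All 57 families passed the filter on low counts, and their lowest count in any library was 5. Levels are counts divided by library size and brought to the usual CPM scale, with library sizes summed over genes and adjusted by TMM, so that repeat reads do not enter the scale. A family is called higher or lower where the adjusted p of edgeR's quasi-likelihood test was under 0.05 over all 23511 genes and repeat families tested. Where families or genes are counted, rose and fell stand for called higher and called lower. Shares of features called are by gene scaling throughout. Gene counts per library ran from 13137026 to 24492838 and SINE counts from 269118 to 723262. Levels follow the number and length of the copies of a family, so they are not compared between families. No source used here says how reads that fit several copies were counted, and near-identical subfamilies may share reads. The library kit does not mark strand, so sense and antisense reads of a repeat cannot be told apart. In bulk RNA, fewer cells of a type and less RNA per cell cannot be told apart. The 8 pluripotency genes summed to 5078 and 4963 CPM in t-hESC BIX and 4446 and 4465 CPM in t-hESC VXN, against 5176 and 5130 CPM in t-hESC DMSO. In the HT29 libraries they summed to 13.4 to 17.7 CPM. Under VXN in t-hESC 5 of the 8 fell and 1 rose, beside 14.1% lower and 14.3% higher of all features. Under BIX 2 fell and 4 rose, beside 12.5% lower and 10.6% higher. The 8 colorectal genes summed to 2006 and 1949 CPM in HT29 VXN, against 1728 and 1689 CPM in HT29 DMSO, and to 113 to 127 CPM in t-hESC. Of these 8, the epithelial genes EPCAM, KRT20, LGALS4 and VIL1 were well measured in every HT29 library, the lowest value being 92.3 CPM for VIL1. The intestinal regulator CDX1 and the cadherin CDH17 stood at 0.547 CPM or less there, and CDX2 at 1.77 CPM or less. KRT20 had means of 699 CPM in HT29 VXN and 254 CPM in HT29 DMSO, and CEACAM5 of 47.7 and 5.64 CPM. VIL1 went the other way, with means of 94.5 and 186 CPM. The 7 fibroblast genes summed to 793 to 836 CPM in t-hESC BIX and 944 to 945 CPM in t-hESC VXN, against 679 to 681 CPM in t-hESC DMSO, and to 7.41 to 9.81 CPM in HT29 VXN, against 3.33 to 4.39 CPM in HT29 DMSO. In t-hESC most of the fibroblast sum was the single gene THY1, with means of 685 CPM in BIX, 852 CPM in VXN and 587 CPM in DMSO. Over the 5 fibroblast genes tested, the median log2 fold change in t-hESC was 0.33 under BIX and -0.079 under VXN. In HT29 it was 2.36 under VXN, with each of these genes at 5.37 CPM or less. The part of the marker genes in the SINE results was not tested.

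With genes as the scale, SINE counts were higher under VXN in HT29 cells across every branch. All SINE families together came to 31811 and 30937 CPM in the HT29 VXN libraries, against 22224 and 21931 CPM in the HT29 DMSO libraries, a gain of 42.1%. Both VXN libraries stood above both DMSO libraries. The sum of the AluJ families was 48.0% higher, that of MIR 46.8%, that of the monomers 43.6%, that of AluS 39.6% and that of AluY 30.5%. No test was made on sums.

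Of the 57 families 50 rose in HT29 VXN and none fell, and scaled by all other repeats 25 were called higher and 4 lower. In this comparison, by gene scaling, 32.6% of all tested features were called higher and 27.3% lower. Of the 959 repeat families other than SINE 63.9% were called higher. Scaled by other repeats, the median log2 fold change was 0.10 over SINE families and -0.35 over all genes. All 17 AluS, 4 AluJ, 4 monomer and 5 MIR families rose, as did AmnSINE1, the Alu row and 18 of 25 AluY families. The median log2 fold change was 0.55 over SINE families and 0.049 over all features. In 55 of 57 families both VXN libraries lay above both DMSO libraries and in none below, which held for 41.6% and 34.2% of all features. The 7 families not called were all AluY.

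**Figure D1:**
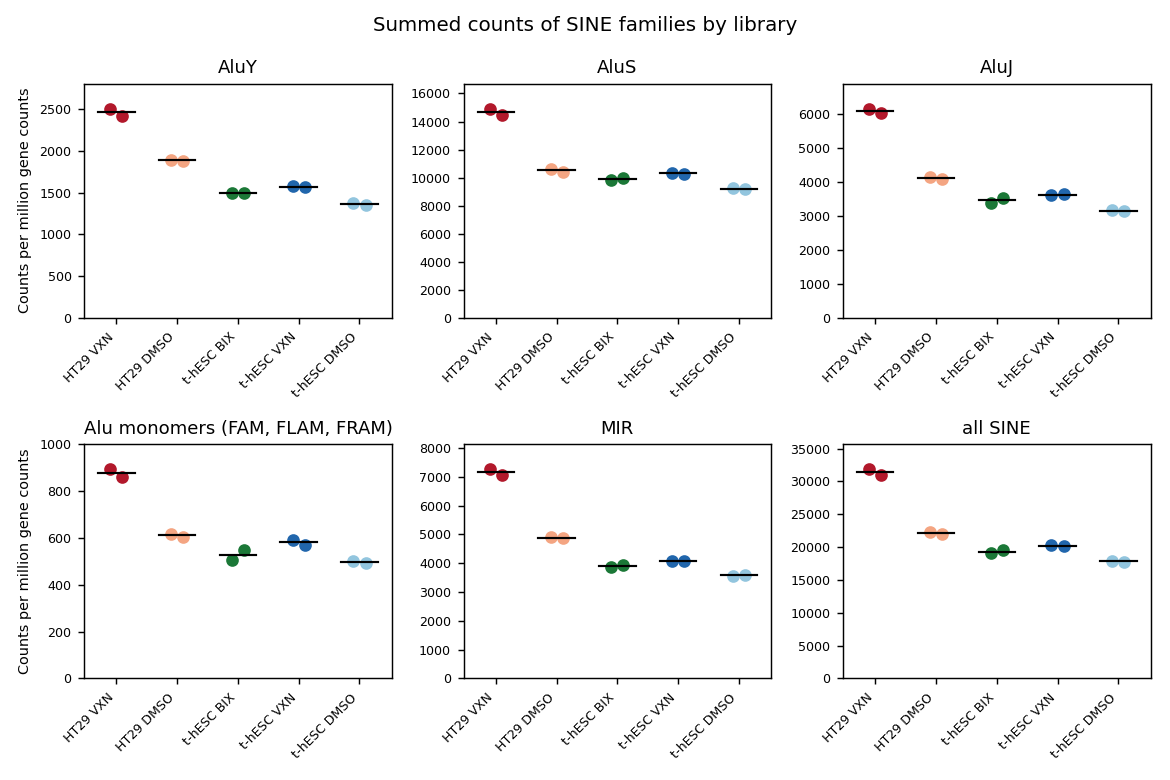
Summed CPM of SINE families (vertical axes, from 0) for AluY, AluS, AluJ, the monomers, MIR and all SINE families in the 5 groups. Each point is 1 library and each bar the mean of 2. With gene scaling, HT29 VXN stands above HT29 DMSO in each panel, and the BIX and VXN points of t-hESC above t-hESC DMSO; scaled by other repeats, the median family was lower under BIX and under VXN in t-hESC.

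The most counted families of the branches rose by unequal amounts. AluY itself, the parent of the youngest branch, had 2057 and 1987 CPM in HT29 VXN, against 1589.8 and 1580.3 CPM in HT29 DMSO. Its log2 fold change was 0.35 ± 0.030 (SE, edgeR adjusted p = 1.77e-18), but it was negative under each of the 3 scalings by repeats. AluSx, a large family of the intermediate branch, had 2558 and 2508 CPM in HT29 VXN, against 1859.7 and 1831 CPM in HT29 DMSO. It rose by 0.46 ± 0.030 on the log2 scale (SE) and neither family's groups overlapped. Under scaling by repeats AluSx was not called (adjusted p between 0.0931 and 0.795) and was negative against the SINE total. The SINE total includes AluSx itself, and scaling by it makes summed SINE counts equal between libraries by construction. It can show only how a family changed relative to other SINE families, not whether SINE counts changed.

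AluJb, of the oldest Alu branch, had 2672 and 2619.6 CPM in HT29 VXN, against 1827 and 1795 CPM in HT29 DMSO, a log2 fold change of 0.55 ± 0.030 (SE). MIRb, an old tRNA-derived family, had 2661 and 2599 CPM in HT29 VXN, against 1735 and 1721 CPM in HT29 DMSO, a log2 fold change of 0.61 ± 0.030 (SE). For both, the VXN libraries lay above the DMSO libraries. MIR rose by a log2 fold change of 0.59 ± 0.031 and AmnSINE1, the element outside Alu and MIR, by 0.60 ± 0.064 (SE, edgeR adjusted p = 5.16e-14). Against the SINE total AluJb and AmnSINE1 were not called (adjusted p = 0.19 and 0.191). The sizes did not follow the age of the branch throughout, since AluYm1, the next most counted AluY family, rose by 0.62 ± 0.052 and MIR3 by 0.42 ± 0.031 on the log2 scale (SE).

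These unequal changes shifted the make-up of the SINE counts. AluY families held 7.89% and 7.82% of SINE counts in HT29 VXN, against 8.50% and 8.60% in HT29 DMSO. MIR families held 22.8% and 22.9% in HT29 VXN, against 22.0% and 22.2% in HT29 DMSO. The shares did not overlap for either branch. With counts scaled to the SINE total, 16 families were called higher and 9 lower in HT29 VXN. AluY then stood at -0.16 on the log2 scale (edgeR adjusted p = 9.74e-07), FRAM at -0.21 (adjusted p = 1.31e-05) and MIRb at 0.10 (adjusted p = 0.000916).

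Of the monomers, FAM had the largest change. It had 138 and 136 CPM in HT29 VXN, against 63.1 and 56.8 CPM in HT29 DMSO. That is a log2 fold change of 1.19 ± 0.046 (SE, edgeR adjusted p = 8.02e-41), or 2.29-fold. FLAM_C, a free left monomer, had 417 and 403 CPM in HT29 VXN, against 300.2 and 295 CPM in HT29 DMSO. The groups of both families lay apart. FRAM, the free right monomer, had 135 and 128 CPM in HT29 VXN, against 106 and 108 CPM in HT29 DMSO.

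The log2 fold changes were 0.46 ± 0.035 for FLAM_C and 0.30 ± 0.044 for FRAM (SE), and FRAM was called lower under each scaling by repeats. FLAM_C was called under none of them, with an edgeR adjusted p of 0.734 against other repeats, 0.213 against the SINE total and 0.347 against LINE and DNA repeats. The ratio of FAM to FLAM_C was 0.331 and 0.338 in HT29 VXN, against 0.210 and 0.192 in HT29 DMSO. FAM also rose with counts scaled to the SINE total, by a log2 fold change of 0.69 (edgeR adjusted p = 3.71e-20).

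**Figure D2:**
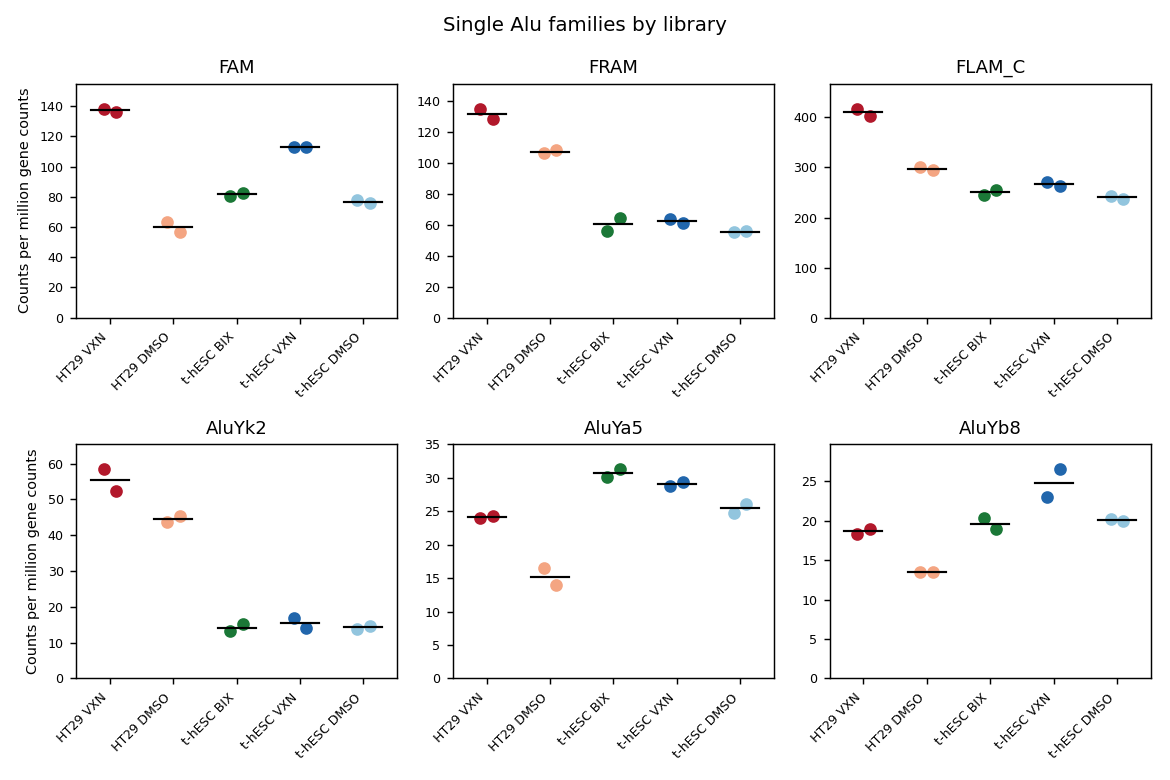
CPM (vertical axes, from 0) of FAM, FRAM, FLAM_C, AluYk2, AluYa5 and AluYb8 in the 5 groups. Each point is 1 library and each bar the mean of 2; FAM stands at 138 and 136 in HT29 VXN and at 113 and 113 in t-hESC VXN, above the DMSO points of its line.

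The widest spread of changes lay among AluY subfamilies with few counts. AluYe5, an AluY subfamily, had 459 and 383 counts in HT29 VXN, against 209 and 212 counts in HT29 DMSO, or 20.2 and 19.0 CPM in VXN and 8.83 and 9.17 CPM in DMSO. It rose by a log2 fold change of 1.13 ± 0.092 (SE, edgeR adjusted p = 1.51e-19). AluYh7 had 50 and 39 counts in HT29 VXN, against 11 and 13 counts in HT29 DMSO, a log2 fold change of 2.00 ± 0.32 (SE). For both the VXN libraries stood clear of the DMSO libraries.

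AluYd8 had 46 and 43 counts in HT29 VXN, against 24 and 19 counts in HT29 DMSO, a log2 fold change of 1.17 ± 0.27 (SE). AluYb9, a relative of AluYb8, had 52 and 50 counts in HT29 VXN, against 26 and 31 counts in HT29 DMSO, a log2 fold change of 0.96 ± 0.25 (SE, edgeR adjusted p = 0.00053). AluYb9 was not called under any scaling by repeats, with log2 fold changes of 0.52, 0.46 and 0.54 against other repeats, the SINE total and LINE and DNA repeats (adjusted p = 0.0718, 0.114 and 0.0594). In these subfamilies the groups did not overlap, but the standard errors were several times that of AluY. The called families with small changes were AluYc3 at 0.23 ± 0.090 and AluYk4 at 0.28 ± 0.11 on the log2 scale (SE), both negative under each scaling by repeats. Neither was called without the first HT29 DMSO library (edgeR adjusted p = 0.497 for AluYc3 and 0.125 for AluYk4) or without the second HT29 VXN library (adjusted p = 0.136 and 0.117), nor by DESeq2 (adjusted p = 0.144 and 0.151) or with summed gene counts as the scale (edgeR adjusted p = 0.0873 and 0.07).

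**Figure D3:**
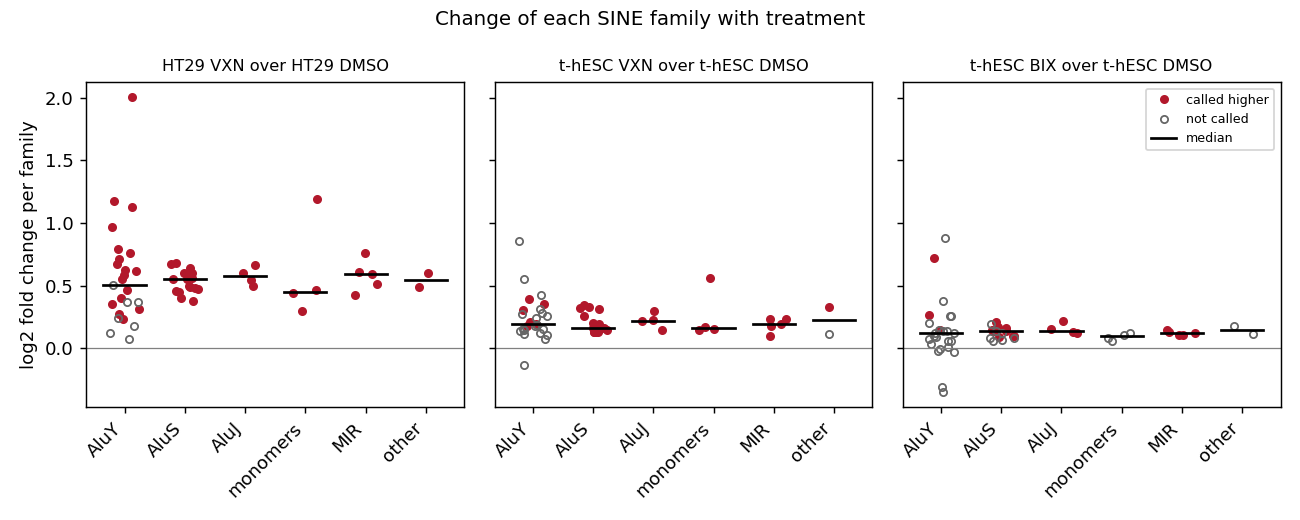
Log2 fold change over DMSO (vertical axis) of each of the 57 SINE families, by branch, for VXN in HT29, VXN in t-hESC and BIX in t-hESC, scaled by genes. Each point is a family, filled where called higher, and each line is the branch median; for VXN in HT29 50 points are filled, with AluYh7 at 2.00 and FAM at 1.19, and scaling by repeats turns the AluY family itself and FRAM negative.

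In t-hESC cells the summed SINE change under VXN was smaller than in HT29. All SINE families came to 20256 and 20166 CPM in the t-hESC VXN libraries, against 17878 and 17788 CPM in the t-hESC DMSO libraries, a gain of 13.3%. The gains of the 5 branch sums lay between 11.8% for AluS and 16.9% for the monomers, and the libraries did not overlap. Of the 57 families 37 rose and none fell, and scaled by all other repeats 2 were called higher and 8 lower. In this comparison, by gene scaling, 14.3% of all features were called higher and 14.1% lower, and 25.9% of other repeat families higher. Scaled by other repeats, the median log2 fold change was -0.049 over SINE families and -0.22 over all genes. All AluS, AluJ, monomer and MIR families rose, with AmnSINE1 and 6 of 25 AluY families. In 45 of 57 families both VXN libraries lay above both DMSO libraries and in none below, which held for 31.3% and 29.1% of all features. The median log2 fold change was 0.18 over SINE families and 0.0084 over all features.

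FAM had the largest called change in this comparison. It had 113 and 113 CPM in t-hESC VXN, against 77.7 and 76.1 CPM in t-hESC DMSO, a log2 fold change of 0.56 ± 0.048 (SE, edgeR adjusted p = 2.59e-17). AluYj4, a young subfamily, had 25.8 and 23.97 CPM in t-hESC VXN, against 19.8 and 18.1 CPM in t-hESC DMSO, a log2 fold change of 0.40 ± 0.081 (SE). AluSg7, of the intermediate branch, had 134 and 131 CPM in t-hESC VXN, against 102 and 106 CPM in t-hESC DMSO, a log2 fold change of 0.34 ± 0.043 (SE). For these 3 families the VXN libraries were above the DMSO libraries. FAM and AluSg7 were called higher under each scaling by repeats, but AluYj4 against other repeats stood at 0.16 and was not called (adjusted p = 0.103).

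The common families moved by smaller and closely similar amounts. AluY had 1257 and 1255 CPM in t-hESC VXN, against 1094 and 1078 CPM in t-hESC DMSO, a log2 fold change of 0.21 ± 0.031 (SE). The log2 fold changes were 0.14 ± 0.030 for AluSx, 0.22 ± 0.030 for AluJb, 0.15 ± 0.037 for FLAM_C, 0.23 ± 0.030 for MIRb and 0.23 ± 0.031 for MIR (SE). Scaled by other repeats, AluY, AluSx, AluJb and FLAM_C turned negative. AmnSINE1 rose by a log2 fold change of 0.33 ± 0.079. AluYk3, an AluY subfamily at 8.27 and 9.32 CPM in t-hESC VXN and 7.34 and 6.51 CPM in t-hESC DMSO, rose by 0.35 ± 0.13 (edgeR adjusted p = 0.0302). Its adjusted p was 0.268 without the second DMSO library, 0.294 without the second VXN library, 0.0704 with upper-quartile factors and 0.17 with DESeq2. Under scaling by repeats none of these 8 families was called higher, with edgeR adjusted p for MIRb of 0.962, 0.118 and 0.223 against other repeats, the SINE total and LINE and DNA repeats.

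With genes as the scale, BIX gave the smallest median SINE change of the 3 treatments. With other repeats as the scale it gave the largest in size, a median log2 fold change of -0.20 for BIX, against 0.10 for VXN in HT29 and -0.049 for VXN in t-hESC. The medians over all genes on that scale were -0.32 for BIX, -0.35 for VXN in HT29 and -0.22 for VXN in t-hESC. That scale includes LTR counts, which gained 43.4% under BIX by gene scaling, and their part in the medians was not tested. Against LINE and DNA repeats, a scale chosen after the data were seen, the order differed. The medians there were -0.051 for BIX, 0.12 for VXN in HT29 and -0.0035 for VXN in t-hESC. All SINE families came to 19109.7 and 19514 CPM in the t-hESC BIX libraries, against 17878 and 17788 CPM in the t-hESC DMSO libraries, a gain of 8.29%. Of the 57 families 22 rose and none fell, but scaled by all other repeats none was called higher and 37 lower. In this comparison, by gene scaling, 10.6% of all features were called higher and 12.5% lower, and 26.4% of other repeat families higher. All 4 AluJ and 5 MIR families were called higher, with 10 of 17 AluS and 3 of 25 AluY families. None of the 4 monomers was called, though all 4 had positive log2 fold changes. In 37 of 57 families both BIX libraries lay above both DMSO libraries and in 2 below, which held for 27.9% and 28.8% of all features. The median log2 fold change was 0.12 over SINE families and 0 over all features. Without the second t-hESC DMSO library the count of families that rose was 14.

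AluY had 1200.0 and 1206 CPM in t-hESC BIX, against 1094 and 1078 CPM in t-hESC DMSO. It rose by a log2 fold change of 0.15 ± 0.031 (SE, edgeR adjusted p = 9.59e-05). AluYa5, one of the subfamilies that still move, had 30.1 and 31.3 CPM in t-hESC BIX, against 24.8 and 26.1 CPM in t-hESC DMSO. Both families' groups lay apart, and scaled by other repeats both families turned negative. AluYa5 rose by 0.27 ± 0.076 on the log2 scale (adjusted p = 0.0052), and its adjusted p was 0.0542 with DESeq2 and 0.056 without the first DMSO library. Against the SINE total neither was called (edgeR adjusted p = 0.411 for AluY and 0.124 for AluYa5).

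AluJr4, of the oldest branch, had 179.5 and 193 CPM in t-hESC BIX, against 164 and 155 CPM in t-hESC DMSO, a log2 fold change of 0.22 ± 0.041 (SE). AluSg4, AluSc8, MIR, MIRb, AluJb and AluSx rose by log2 fold changes of 0.21, 0.17, 0.14, 0.13, 0.12 and 0.092. Scaled by other repeats AluJr4 and these 6 turned negative, and without the second DMSO library AluSx and AluSg4 were not called (edgeR adjusted p = 0.103 for AluSx and 0.0504 for AluSg4). Against the SINE total AluJr4 was called higher (adjusted p = 0.0315) and the other 6 were not called.

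AluYg6, a rare subfamily, had 45 and 46 counts in t-hESC BIX, against 44 and 29 counts in t-hESC DMSO, and a log2 fold change of 0.72 ± 0.24 (SE, edgeR adjusted p = 0.0174). It was not called by DESeq2 (adjusted p = 0.107), without the second BIX library (edgeR adjusted p = 0.157) or without the second DMSO library (adjusted p = 0.468). Nor was it called against other repeats (adjusted p = 0.164) or LINE and DNA repeats (adjusted p = 0.0668). FAM had 80.8 and 82.4 CPM in t-hESC BIX, against 77.7 and 76.1 CPM in t-hESC DMSO. Its libraries lay apart, but the log2 fold change of 0.085 ± 0.051 had an adjusted p of 0.249 and a 95% interval of -0.016 to 0.19. The log2 fold changes of FLAM_C (0.061 ± 0.038), AluSx1 (0.066 ± 0.031) and AmnSINE1 (0.18 ± 0.084) were not called either, with adjusted p of 0.278, 0.114 and 0.121. With summed gene counts as the scale all 4 were called higher, with edgeR adjusted p of 0.0193 for FAM, 0.00579 for FLAM_C, 0.000135 for AluSx1 and 0.0251 for AmnSINE1. AluSx1 was also called with DESeq2-type size factors (adjusted p = 0.00645), with repeat rows fitted alone (adjusted p = 0.0172), without the first BIX library (adjusted p = 0.00764) and without either t-hESC VXN library. Scaled by other repeats FAM, FLAM_C and AluSx1 were called lower.

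The BIX and VXN comparisons in t-hESC share the same DMSO libraries, and the compounds were given at 1 µM and 10 µM, so the direct comparison joins compound and dose. Of the 57 families 8 were higher in t-hESC VXN than in t-hESC BIX and none lower, while 11.4% of all features were called higher and 9.9% lower, and 3.34% of other repeat families higher. Against other repeats 33 were called higher and none lower, with a median log2 fold change of 0.16, against 0.075 by gene scaling, and against the SINE total 3 were called higher and 2 lower. With upper-quartile factors 4 were called higher and 1 lower, and with DESeq2-type size factors 7 and 1. Leaving out the first BIX library gave 4 calls, and leaving out either VXN library gave 5. FAM had 113 and 113 CPM in t-hESC VXN, against 80.8 and 82.4 CPM in t-hESC BIX, a log2 fold change of 0.47 ± 0.049 (SE, edgeR adjusted p = 3.62e-13). The groups lay far apart, and FAM was called in every setting tried.

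AluYb8, another mobile subfamily, had 23.0 and 26.5 CPM in t-hESC VXN, against 20.4 and 18.9 CPM in t-hESC BIX. Its log2 fold change was 0.33 ± 0.085 (SE, edgeR adjusted p = 0.00193), and the adjusted p was 0.148 without the second VXN library and 0.0505 without the second BIX library. AluSg7 was higher by a log2 fold change of 0.20 ± 0.045 (SE). AluYj4, AluSz6, MIRb, AluJb and MIR were higher by 0.26, 0.12, 0.11, 0.10 and 0.088 on the log2 scale. AluYj4 was not called without the second BIX library (adjusted p = 0.224) or the first VXN library (adjusted p = 0.203), nor by DESeq2 (adjusted p = 0.089). AluSz6 and AluJb were not called without the first BIX library or 1 of the VXN libraries, and MIRb was not called without the first BIX library. With upper-quartile factors AluYj4, AluJb, MIRb and MIR were not called, nor were these 4 and AluSz6 against the SINE total. The call of MIR was lost whichever single library was left out, with adjusted p between 0.0523 and 0.167.

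By the interaction term of the same fit, the VXN effect was larger in HT29 than in t-hESC for 42 of 57 SINE families and smaller for none. Of all features 21.7% had a larger and 20.7% a smaller effect in HT29, and 28.6% of other repeat families a larger one. All AluS, AluJ and MIR families were among the 42, with 11 of 25 AluY families, and FRAM was the only monomer not called. With other repeats as the scale 20 families had a larger effect in HT29 and none a smaller one. With counts scaled to the SINE total 7 families had a larger and 3 a smaller effect in HT29. AluYh7, AluYe5 and FAM then differed by 1.42, 0.65 and 0.31 on the log2 scale, and AluY by -0.19 (edgeR adjusted p = 0.0123, 0.000206, 3.81e-05 and 4.73e-05).

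Scaled by genes, the difference for FAM was 0.64 ± 0.067 (SE, edgeR adjusted p = 5.06e-14), between log2 fold changes of 1.19 in HT29 and 0.56 in t-hESC. For AluYe5 it was 0.98 ± 0.15 (SE, adjusted p = 6.03e-08). This subfamily had 8.75 and 8.59 CPM in t-hESC VXN, against 7.89 and 7.78 CPM in t-hESC DMSO. For AluY, the parent family, the difference was 0.14 ± 0.043 (SE), negative under each scaling by repeats. With summed gene counts as the scale it was 0.047 and was not called (adjusted p = 0.321).

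The lines also differed without treatment. All SINE families came to 22224 and 21931 CPM in HT29 DMSO, against 17878 and 17788 CPM in t-hESC DMSO, which is 23.8% more in HT29. By gene scaling 37 of 57 families were higher in HT29 and 7 lower, against 8 higher and 21 lower when scaled by all other repeats. In this comparison, by gene scaling, 40.4% of all features were called higher and 43.4% lower, and 60.4% of other repeat families higher. Scaled by other repeats, the median log2 fold change was -0.058 over SINE families and -0.45 over all genes. All AluJ and MIR families were higher in HT29 by gene scaling, with 15 of 17 AluS and 8 of 25 AluY families. MIR families held 22.0% and 22.2% of SINE counts in HT29 DMSO, against 19.9% and 20.2% in t-hESC DMSO. AluS families held 47.8% and 47.6% in HT29 DMSO, against 51.7% and 51.6% in t-hESC DMSO.

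AluYk2, an AluY subfamily, differed most. It had 43.8 and 45.5 CPM in HT29 DMSO, against 13.9 and 14.8 CPM in t-hESC DMSO, a log2 fold change of 1.63 ± 0.076 (SE, edgeR adjusted p = 9.07e-36). FRAM had 106 and 108 CPM in HT29 DMSO, against 55.0 and 55.7 CPM in t-hESC DMSO, a log2 fold change of 0.95 ± 0.050 (SE). The groups of both lay far apart, and HT29 was higher for both under every scaling tried. MIR1_Amn was higher by 0.67 ± 0.042, MIR by 0.55 ± 0.031, AluY by 0.55 ± 0.031, MIRb by 0.49 ± 0.030 and AluJb by 0.38 ± 0.030 on the log2 scale (SE), and all 5 were negative when scaled by LINE and DNA repeats.

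AmnSINE1, FLAM_C and AluSx were higher by log2 fold changes of 0.44, 0.31 and 0.21, and negative when scaled by LINE and DNA repeats. Against other repeats FLAM_C and AluSx were negative, and AluJb and AmnSINE1 were not called (edgeR adjusted p = 0.406 and 0.255). A pair of rare subfamilies, AluYg6 and AluYk12, were higher by 0.84 ± 0.21 and 0.79 ± 0.35 (SE), with edgeR adjusted p of 0.0832 and 0.306 without the second t-hESC DMSO library. Without the second HT29 DMSO library AluYk12 had an adjusted p of 0.427. AluYk12 was not called by DESeq2 (adjusted p = 0.177), with summed gene counts (edgeR adjusted p = 0.0534) or under any scaling by repeats, and AluYg6 was not called against LINE and DNA repeats (adjusted p = 0.583).

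AluYa5 and AluYb8 were lower in HT29. AluYa5 had 16.5 and 13.9 CPM in HT29 DMSO, against 24.8 and 26.1 CPM in t-hESC DMSO. The log2 fold change was -0.74 ± 0.079 (SE, edgeR adjusted p = 2.05e-14). AluYb8 had 13.5 and 13.5 CPM in HT29 DMSO, against 20.2 and 19.9 CPM in t-hESC DMSO, a log2 fold change of -0.57 ± 0.085 (SE, adjusted p = 3.95e-09). The groups did not overlap for either, and both were negative under every scaling tried.

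FAM had 63.1 and 56.8 CPM in HT29 DMSO, against 77.7 and 76.1 CPM in t-hESC DMSO, the opposite order to FRAM. Log2 fold changes of the lower families were -0.36 ± 0.050 for FAM, -0.34 ± 0.068 for AluYf1 and -0.15 ± 0.030 for AluSx1 (SE). AluYc3 at -0.25 ± 0.091 and AluYh7 at -0.86 ± 0.39 were lower too (edgeR adjusted p = 0.00834 and 0.0335). AluYc3 was not called without the first HT29 DMSO library (adjusted p = 0.243) or the first t-hESC DMSO library (adjusted p = 0.152), nor was AluYh7 (adjusted p = 0.133 and 0.199). DESeq2 called neither (adjusted p = 0.0733 for AluYc3 and 0.126 for AluYh7), and with upper-quartile factors AluYc3, AluYh7 and AluSx1 were not called (edgeR adjusted p = 0.154, 0.0662 and 0.183).

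**Figure D4:**
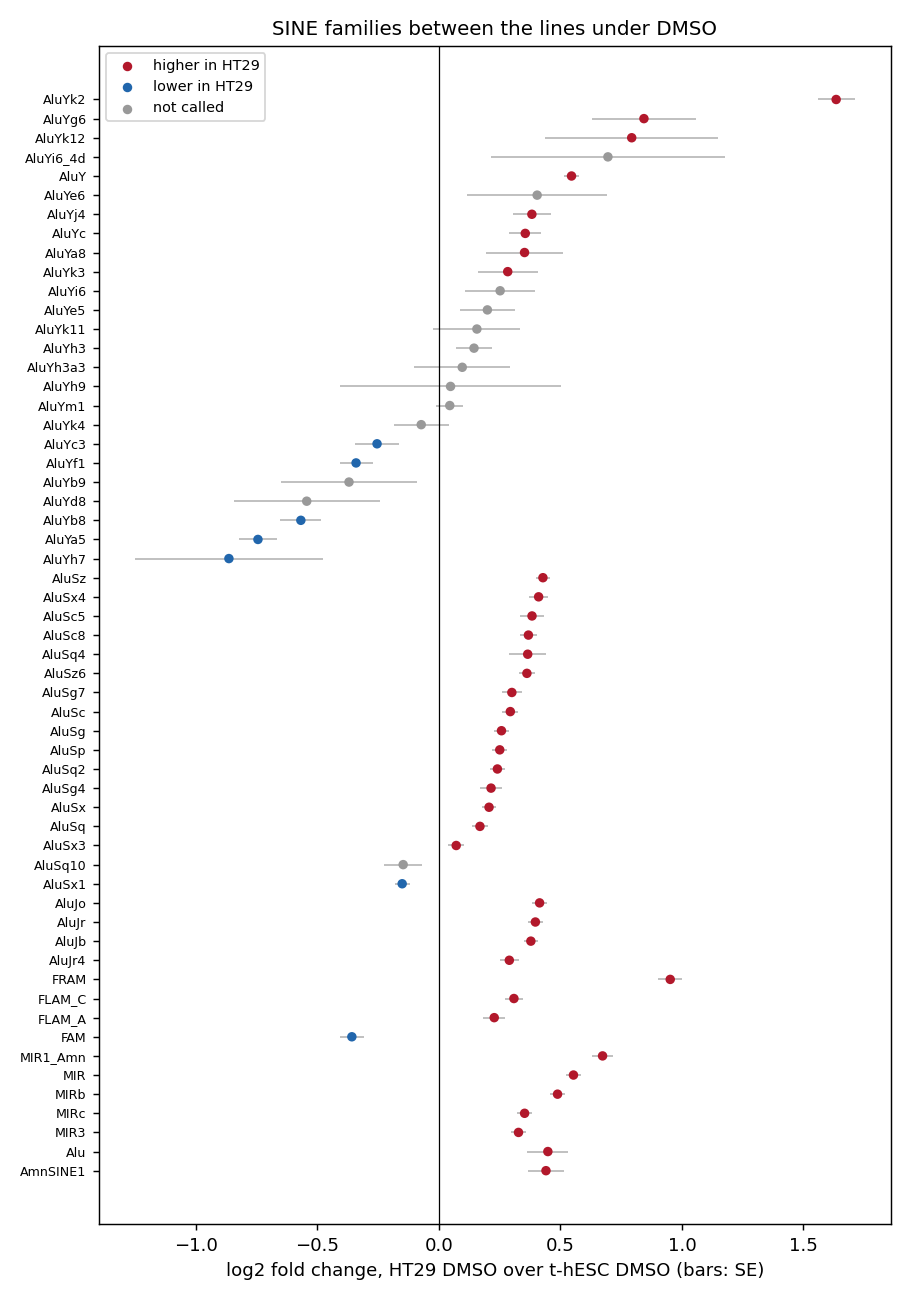
Log2 fold change of HT29 DMSO over t-hESC DMSO (horizontal axis, bars are SE) for the 57 SINE families, grouped by branch and coloured by call, scaled by genes. AluYk2 stands at 1.63, FRAM at 0.95, AluYa5 at -0.74 and AluYb8 at -0.57; scaled by LINE and DNA repeats 49 of the 57 were called lower.

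The direction of many SINE changes depended on the scale. Summed LINE, DNA and LTR counts were above DMSO under each treatment, as SINE counts were, while satellite counts differed from DMSO by 48.4% under VXN in HT29, -7.65% under VXN in t-hESC and 1.36% under BIX. Under VXN in HT29, summed SINE counts gained 42.1%, LTR counts 41.5%, LINE counts 34.7% and DNA transposon counts 32.2%. Against LINE and DNA repeats, a scale chosen after the data were seen, 28 SINE families were higher in HT29 VXN and 2 lower. FAM then had a log2 fold change of 0.77, MIRb of 0.18 (edgeR adjusted p = 3.13e-07) and AluY of -0.072 (adjusted p = 0.0349).

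Under VXN in t-hESC, summed SINE, LINE and DNA counts gained 13.3%, 13.8% and 13.6%, and LTR counts 23.0%. Against LINE and DNA repeats 5 SINE families were higher and 1 lower in t-hESC VXN. FAM had a log2 fold change of 0.37 against LINE and DNA repeats (edgeR adjusted p = 5.34e-09) and of 0.38 against the SINE total (adjusted p = 8.67e-10). Under BIX, SINE counts gained 8.29%, LINE counts 13.7%, DNA counts 10.6% and LTR counts 43.4%. Against LINE and DNA repeats no SINE family was higher and 7 were lower in t-hESC BIX, among them AluSx1 at -0.11 (adjusted p = 0.00275).

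The LTR sum in t-hESC holds HERVH-int and its long terminal repeat LTR7, a retrovirus family active in pluripotent cells. HERVH-int had 3723 and 3808 CPM in t-hESC BIX, against 1890.1 and 1916 CPM in t-hESC DMSO. Without HERVH-int, LTR7 and any row named LTR7B, LTR7C or LTR7Y the LTR gain under BIX was 21.3%. Between the lines, LINE counts were 69.6% and DNA counts 50.6% higher in HT29 DMSO than in t-hESC DMSO. LTR counts differed by -24.7%, or by 7.67% without HERVH-int, LTR7 and the same related rows, and satellite counts by -35.8%. Against LINE and DNA repeats 49 SINE families were lower and 2 higher in HT29, the 2 being AluYk2 and FRAM, at 0.92 and 0.23 on the log2 scale.

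**Figure D5:**
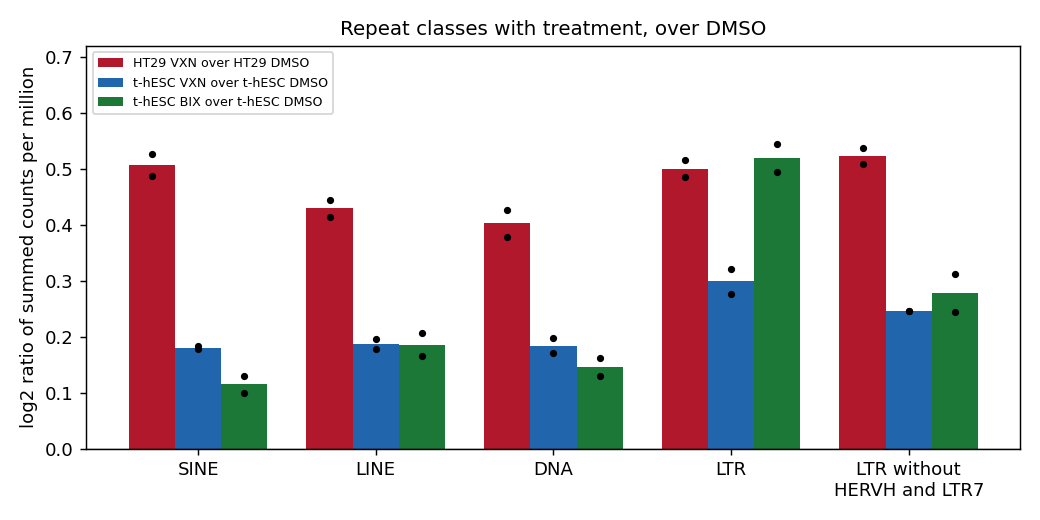
Log2 ratio of summed CPM over the DMSO mean of the same line (vertical axis, from 0) for SINE, LINE, DNA and LTR repeats. The last group is LTR repeats without HERVH-int, LTR7 and any row named LTR7B, LTR7C or LTR7Y. Bars are the ratio of group means and points the 2 treated libraries; with gene scaling the SINE bars stand at 0.51 for VXN in HT29, 0.18 for VXN in t-hESC and 0.11 for BIX in t-hESC.

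SVA elements, composite retroposons that carry an Alu-like stretch and may share reads with Alu, gained 94.0% as a class under VXN in HT29. In t-hESC the class gained 27.3% under VXN and 13.4% under BIX. SVA_F had 73.5 and 67.0 CPM in HT29 VXN, against 35.2 and 31.9 CPM in HT29 DMSO, a log2 fold change of 1.07 (edgeR adjusted p = 8.32e-29). Its log2 fold changes in t-hESC were 0.66 under VXN and 0.34 under BIX (edgeR adjusted p = 5.70e-14 and 8.38e-05). The young LINE family L1HS, whose proteins move Alu RNA, had 35.3 and 35.9 CPM in HT29 VXN, against 36.9 and 38.0 CPM in HT29 DMSO. Its log2 fold change of -0.073 had an adjusted p of 0.313. In t-hESC it had 64.2 and 62.1 CPM under BIX and 60.8 and 66.6 CPM under VXN, against 49.3 and 47.8 CPM under DMSO, log2 fold changes of 0.38 for BIX and 0.39 for VXN (adjusted p = 1.04e-07 and 1.42e-08).

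Genes that make, bind or sense SINE RNA were read from lists chosen with earlier results of these data known, and shares of lists are set beside the shares over all features. SRP9 and SRP14 encode the protein pair that binds the Alu fold of 7SL and Alu RNA. SRP9 had 162 and 163 CPM in HT29 VXN, against 321 and 319 CPM in HT29 DMSO, a log2 fold change of -0.97 ± 0.038 (SE, edgeR adjusted p = 1.03e-40). SRP14 had 184 and 181 CPM in HT29 VXN, against 288 and 272 CPM in HT29 DMSO, a log2 fold change of -0.62 ± 0.037 (SE). Both fell with no overlap between the groups. The other 4 proteins of the particle listed, SRP19, SRP54, SRP68 and SRP72, rose in HT29 VXN, by log2 fold changes of 0.46, 0.19, 0.16 and 0.36. Of all features 32.6% were called higher and 27.3% lower in HT29 VXN, 14.3% and 14.1% in t-hESC VXN, and 10.6% and 12.5% in t-hESC BIX.

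In t-hESC VXN SRP14 and SRP72 fell by 0.20 and 0.22 on the log2 scale and none of the 6 rose. SRP9 had 239.6 and 225 CPM in t-hESC VXN, against 241 and 229 CPM in t-hESC DMSO (edgeR adjusted p = 0.834). In t-hESC BIX SRP9, SRP14 and SRP72 fell, by 0.17, 0.25 and 0.27 on the log2 scale.

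Of 13 genes for subunits of RNA polymerase III, 4 rose and 5 fell in HT29 VXN, 3 rose and 3 fell in t-hESC VXN, and none rose and 6 fell in t-hESC BIX. In HT29 VXN these counts lie near the 32.6% higher and 27.3% lower of all features, and the list's median log2 fold change was -0.011, against 0.049 over all features. In t-hESC 14.3% of all features were higher and 14.1% lower under VXN, and 10.6% and 12.5% under BIX. The subunit gene POLR3K had 13.02 and 13.6 CPM in HT29 VXN, against 29.4 and 28.1 CPM in HT29 DMSO (log2 fold change -1.11 ± 0.078, SE). The subunit gene POLR3D had 22.9 and 26.2 CPM in HT29 VXN, against 15.4 and 13.8 CPM in HT29 DMSO (log2 fold change 0.75 ± 0.078, SE). These 2 genes moved in opposite directions with no overlap between the groups. Of 18 genes for initiation factors and regulators 3 rose and 8 fell in HT29 VXN, 1 rose and 7 fell in t-hESC VXN, and 2 rose and 7 fell in t-hESC BIX, with medians of -0.15, -0.097 and -0.11, beside the same shares of all features. SSB, which encodes the La protein that binds new polymerase III transcripts, had 166 and 162 CPM in HT29 VXN, against 265 and 265 CPM in HT29 DMSO. POLR3G, a subunit of the form of the enzyme found in stem cells, had 12.1 and 10.2 CPM in HT29 DMSO, against 212 and 199.6 CPM in t-hESC DMSO.

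Among 10 free-standing polymerase III transcripts 6 passed the filter, and 4 of these rose in HT29 VXN, where 32.6% of all features did. RN7SL1 and RN7SL2, copies of 7SL that may share reads, were among the 4. RN7SL2 had 2.11 and 1.74 CPM in HT29 VXN, against 0.718 and 0.605 CPM in HT29 DMSO, a log2 fold change of 1.54 ± 0.30 (SE, edgeR adjusted p = 4.26e-06). RN7SL1 had 3.96 and 4.48 CPM in HT29 VXN, against 1.94 and 1.38 CPM in HT29 DMSO, a log2 fold change of 1.33 ± 0.38 (SE). All 6 stood at 4.66 CPM or less in every library. RN7SK, which restrains transcription elongation, and RPPH1, the RNA of ribonuclease P, rose by log2 fold changes of 0.68 and 1.38.

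BCYRN1, the BC200 RNA gene that arose from an Alu monomer, had 0.440 and 0.497 CPM in HT29 VXN, against 0.549 and 1.08 CPM in HT29 DMSO (edgeR adjusted p = 0.076). In t-hESC it had 3.75 and 3.09 CPM under VXN, against 2.25 and 1.98 CPM under DMSO, a log2 fold change of 0.69 ± 0.22 (SE, adjusted p = 0.0109). It was the only one of the 6 that was called in t-hESC VXN, and none was called in t-hESC BIX. These counts lie near the shares of all features, 14.3% higher and 14.1% lower under VXN and 10.6% and 12.5% under BIX.

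Of 16 genes whose proteins bind or edit double-stranded or Alu RNA 4 rose and 9 fell in HT29 VXN, where 32.6% of all features were called higher and 27.3% lower. The list's median log2 fold change was -0.46, against 0.049 over all features. ADAR, which edits adenosines in paired Alu repeats, had 578 and 572 CPM in HT29 VXN, against 306 and 300.5 CPM in HT29 DMSO, a log2 fold change of 0.92 ± 0.034 (SE). HNRNPC, whose protein keeps Alu exons out of mRNA, had 359 and 359 CPM in HT29 VXN, against 678 and 674 CPM in HT29 DMSO, a log2 fold change of -0.91 ± 0.032 (SE). The groups lay apart for both genes. In t-hESC VXN 10 of the 16 fell and none rose, and in t-hESC BIX 7 fell and 3 rose. Of all features 14.1% were called lower and 14.3% higher in t-hESC VXN, and 12.5% and 10.6% in t-hESC BIX. All 11 sensors of double-stranded RNA rose in HT29 VXN, and none was called in t-hESC VXN. EIF2AK2, the kinase PKR, and MAVS, an adaptor of RNA sensors, rose in t-hESC BIX by log2 fold changes of 0.30 and 0.42. EIF2AK2 had 43.1 and 41.6 CPM in t-hESC VXN, against 43.6 and 41.3 CPM in t-hESC DMSO. MAVS had 58.7 and 65.3 CPM in t-hESC VXN, against 62.2 and 62.8 CPM in t-hESC DMSO. The other sensors stood at 3.93 CPM or less in every t-hESC library, with OASL, OAS1, OAS2, IFIH1 and TLR3 at 0.66 CPM or less. For 10 of the 11 the VXN effect was larger in HT29 by the interaction term, where 21.7% of all features had a larger and 20.7% a smaller effect. For the sensors at these low levels both results rest on few t-hESC counts, so a missing call there does not show a lack of response.

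Of 20 chromatin factors that silence repeats 16 fell and 2 rose in HT29 VXN, with a median log2 fold change of -0.63, against 27.3% lower, 32.6% higher and a median of 0.049 over all features. UHRF1, which guides maintenance DNA methylation, had 16.1 and 15.8 CPM in HT29 VXN, against 92.8 and 95.2 CPM in HT29 DMSO. HELLS, a remodeller of heterochromatin, had 6.51 and 6.17 CPM in HT29 VXN, against 46.2 and 47.8 CPM in HT29 DMSO. Both fell, with log2 fold changes of -2.56 for UHRF1 and -2.89 for HELLS. In t-hESC VXN 11 of the 20 fell and none rose, among them EHMT1 and EHMT2, which encode GLP and G9a, by 0.30 and 0.23 on the log2 scale, where 14.1% of all features were called lower and 14.3% higher. In t-hESC BIX 7 fell and 5 rose, against 12.5% and 10.6% of all features, and EHMT1 and EHMT2 were not called (edgeR adjusted p = 0.45 and 0.802).

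All 4 listed long noncoding RNAs that stay in the nucleus rose in HT29 VXN, where 32.6% of all features were called higher. MALAT1 had 724 and 699 CPM in HT29 VXN, against 114 and 122 CPM in HT29 DMSO, and NEAT1, the core of paraspeckles, had 1409 and 1401 CPM in VXN, against 312 and 319.8 CPM in DMSO. In t-hESC MALAT1 had 38.2 and 32.3 CPM under BIX and 54.3 and 52.6 CPM under VXN, against 26.7 and 23.5 CPM under DMSO, and it rose under both. Of the other 3, none was called higher in t-hESC under either compound, and TUG1 fell under VXN. KCNQ1OT1 had 2.19 and 1.89 CPM in t-hESC BIX, against 1.31 and 1.32 CPM in t-hESC DMSO, and was not called. In t-hESC 14.3% of all features were called higher and 14.1% lower under VXN, and 10.6% and 12.5% under BIX. Whether nuclear or unspliced RNA had a part in the SINE counts was not tested.

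The authors' deposited tables of fold changes and adjusted p-values called fewer SINE families, and fewer features in all. For VXN in HT29 the authors' deposited table called 33 of the 57 higher and none lower, and all 33 were also called here. For VXN in t-hESC the authors' deposited table called FAM alone, with 7 families carrying no adjusted p. For BIX the authors' deposited table called none, with 8 carrying no adjusted p. Over all features the authors' tables called 8554 for VXN in HT29, 1231 for VXN in t-hESC and 702 for BIX. By edgeR here 7664 features were called higher and 6425 lower for VXN in HT29. For VXN in t-hESC these were 3371 and 3309, and for BIX 2481 and 2932. DESeq2 run here on the counts, scaled by genes, called 47 families higher for VXN in HT29, 33 for VXN in t-hESC and 20 for BIX. The features it called in all were not counted.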

How the data were processed

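RNA of 10 libraries was counted over 60651 genes and 1181 repeat families. The deposited table holds raw counts, and the authors' deposited comparison tables hold log2 fold changes and adjusted p-values. Tools listed in the submitters' processing notes, without their roles, are DESeq2 1.34.0, fastp 0.20.1, FastQC 0.11.9 and STAR. The genome build named there is hg38. The counting program and its annotation are unknown from the sources used here. The table's 4 other columns match no sample and were not used.

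Counts of genes and repeat families were fitted in 1 table with edgeR 4.0.16 in R 4.3.3. Library sizes were summed gene counts times TMM factors, from 13137026 to 24492838 gene counts. A count of 0 allows up to 3 counts, or 0.127 to 0.218 CPM, for counting error only. The filter was filterByExpr with a minimum count of 10, the test the robust quasi-likelihood F test over all 10 libraries with group as the only term, and the adjustment Benjamini-Hochberg over 23511 features. The test was checked on simulated data. CPM use the same sizes.

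Members and gene lists were chosen with earlier results of these data known. The rule for named families was the 2 most counted per branch, every SINE outside Alu and MIR, and per comparison the 5 highest and 5 lowest called log2 fold changes at a mean of at least 1 CPM; those printed come from it, except MIR3 under VXN in HT29, FAM under BIX and AluYc3 between the lines, which were added after their values were seen. Genes were the 4 with the smallest p per list and comparison, plus all signal recognition particle and polymerase III transcripts; EHMT1 under BIX and EHMT2 under VXN and BIX in t-hESC were added after their values were seen. The series calls its replicates biological, and no p-value covers more than the spread among these 10 libraries. Alternatives were other scalings, DESeq2 1.42.0, other filters and fits, the replicate block and each library left out, and the scale by LINE and DNA repeats was added after seeing the data.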

Additional observations from a re-analysis of the deposited data

Results flagged for a closer look

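For 10 named SINE families the VXN effect in HT29 exceeded that in t-hESC by the interaction term of the edgeR fit, scaled by genes. They were picked as the 5 highest and 5 lowest among the 42 families called, all of them larger in HT29. Their call and direction were therefore set by the choice. The differences in log2 fold change were 1.74 for AluYh7, 1.10 for AluYd8, 0.98 for AluYe5, 0.656 for AluYk11, 0.638 for FAM, 0.249 for AluYf1, 0.248 for AluSg7, 0.234 for AluSc, 0.228 for AluSz6 and 0.141 for AluY. Adjusted p lay between 5.06e-14 for FAM and 0.0269 for AluYf1. AluYh7, with 50 and 39 counts in HT29 VXN and 11 and 13 in HT29 DMSO, had 15 and 24 in t-hESC VXN and 20 and 17 in t-hESC DMSO. AluYk11 had 6.51 and 7.46 CPM in HT29 VXN and 4.14 and 3.89 CPM in HT29 DMSO, and 4.64 and 3.31 CPM in t-hESC VXN and 4.05 and 3.21 CPM in t-hESC DMSO. Scaled to the SINE total, the differences of AluYf1, AluSg7, AluSc, AluSz6 and AluY turned negative. Under each scaling by repeats AluYh7, AluYe5 and FAM were called larger in HT29 and the other 7 were not. With summed gene counts as the scale AluY had a difference of 0.047 (adjusted p = 0.321), and AluYk11 and AluYf1 were not called either (adjusted p = 0.0642 and 0.181). DESeq2 did not call AluYd8, AluYk11 or AluYf1 (adjusted p = 0.155, 0.172 and 0.144), and the edgeR calls of these 3 were lost without single libraries. Without the second HT29 DMSO library their adjusted p was 0.072, 0.0659 and 0.0985. AluYd8 was also not called without the second t-hESC DMSO library (adjusted p = 0.158) or the first t-hESC VXN library (adjusted p = 0.0735). AluYk11 and AluYf1 were not called without the first t-hESC DMSO library (adjusted p = 0.17 and 0.0517) or the second t-hESC VXN library (adjusted p = 0.199 and 0.149), nor AluYk11 without the second HT29 VXN library (adjusted p = 0.103).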

How the results depend on the processing

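The results turned on whether genes or repeats set the scale, and the cause was not tested. The scale by LINE and DNA repeats was chosen after seeing the data. Scaled by other repeats, the SINE families called numbered 29 for VXN in HT29 (25 higher, 4 lower), 10 for VXN in t-hESC (2 higher, 8 lower), 37 for BIX in t-hESC (0 higher, 37 lower), 33 for VXN over BIX (33 higher, 0 lower), 20 for the difference of the VXN effects (20 higher, 0 lower) and 29 for HT29 over t-hESC (8 higher, 21 lower). Their median log2 fold changes were 0.10, -0.049, -0.20, 0.16, 0.12 and -0.058 in the same order, with medians over all genes of -0.35, -0.22, -0.32, 0.093, -0.16 and -0.45. VXN in HT29 reversed for AluY (-0.095), AluYc3 (-0.21), AluYk4 (-0.17) and FRAM (-0.15) on that scale. VXN in t-hESC reversed for AluY (-0.021), AluSx (-0.094), AluJb (-0.015) and FLAM_C (-0.077) on that scale. BIX in t-hESC reversed for AluY (-0.17), AluYa5 (-0.053), AluSx (-0.23), AluSx1 (-0.25), AluSg4 (-0.11), AluSc8 (-0.15), AluJb (-0.20), AluJr4 (-0.099), FLAM_C (-0.26), FAM (-0.23), MIRb (-0.19), MIR (-0.18) and AmnSINE1 (-0.14) on that scale. The difference of the VXN effects reversed for AluY (-0.075) on that scale. HT29 over t-hESC reversed for AluSx (-0.15) and FLAM_C (-0.043) on that scale. Scaling by the SINE total makes summed SINE counts equal between libraries by construction. Lost calls and reversals on it are therefore relative to other SINE families only. Scaled by the SINE total, the SINE families called numbered 25 for VXN in HT29 (16 higher, 9 lower), 7 for VXN in t-hESC (6 higher, 1 lower), 2 for BIX in t-hESC (2 higher, 0 lower), 5 for VXN over BIX (3 higher, 2 lower), 10 for the difference of the VXN effects (7 higher, 3 lower) and 30 for HT29 over t-hESC (12 higher, 18 lower). Their median log2 fold changes were 0.040, 0.0015, 0.0088, 0.0091, 0.0051 and -0.014 in the same order, with medians over all genes of -0.41, -0.17, -0.12, -0.053, -0.27 and -0.40. VXN in HT29 reversed for AluY (-0.16), AluYc3 (-0.27), AluYk4 (-0.23), AluSx (-0.050), FLAM_C (-0.045) and FRAM (-0.21) on that scale. VXN in t-hESC reversed for AluSx (-0.044) and FLAM_C (-0.027) on that scale. BIX in t-hESC reversed for AluSx (-0.022), AluSx1 (-0.049), FLAM_C (-0.054) and FAM (-0.029) on that scale. The difference of the VXN effects reversed for AluYf1 (-0.078), AluSg7 (-0.078), AluSc (-0.092), AluSz6 (-0.098) and AluY (-0.19) on that scale. HT29 over t-hESC reversed for AluSx (-0.10) on that scale. Scaled by LINE and DNA repeats, the SINE families called numbered 30 for VXN in HT29 (28 higher, 2 lower), 6 for VXN in t-hESC (5 higher, 1 lower), 7 for BIX in t-hESC (0 higher, 7 lower), 7 for VXN over BIX (7 higher, 0 lower), 14 for the difference of the VXN effects (14 higher, 0 lower) and 51 for HT29 over t-hESC (2 higher, 49 lower). Their median log2 fold changes were 0.12, -0.0035, -0.051, 0.064, 0.094 and -0.42 in the same order, with medians over all genes of -0.32, -0.18, -0.18, 0, -0.19 and -0.81. VXN in HT29 reversed for AluY (-0.072), AluYc3 (-0.19), AluYk4 (-0.15) and FRAM (-0.13) on that scale. VXN in t-hESC reversed for AluSx (-0.049) and FLAM_C (-0.032) on that scale. BIX in t-hESC reversed for AluY (-0.027), AluSx (-0.083), AluSx1 (-0.11), AluSc8 (-0.0058), AluJb (-0.057), FLAM_C (-0.11), FAM (-0.089), MIRb (-0.047) and MIR (-0.030) on that scale. The difference of the VXN effects reversed for AluSc (-0.0032), AluSz6 (-0.0092) and AluY (-0.096) on that scale. HT29 over t-hESC reversed for AluY (-0.17), AluSx (-0.51), AluJb (-0.34), FLAM_C (-0.41), MIR1_Amn (-0.045), MIRb (-0.23), MIR (-0.16) and AmnSINE1 (-0.28) on that scale. With genes as the scale, DESeq2-type size factors gave medians of 0.15 for BIX in t-hESC, 0.056 for VXN over BIX and 0.27 for HT29 over t-hESC. Upper-quartile factors gave medians of 0.13 for VXN in t-hESC, 0.034 for VXN over BIX, 0.41 for the difference of the VXN effects and 0.41 for HT29 over t-hESC. Summed gene counts alone gave medians of 0.49 for VXN in HT29, 0.22 for VXN in t-hESC, 0.18 for BIX in t-hESC, 0.054 for VXN over BIX, 0.24 for the difference of the VXN effects and 0.25 for HT29 over t-hESC. TMM over genes and repeats gave medians of 0.27 for HT29 over t-hESC. Fits of only the groups compared gave medians of 0.51 for VXN in HT29 and 0.27 for HT29 over t-hESC. Upper-quartile factors gave 5 calls for VXN over BIX. Leaving out each library in turn gave calls of 48 to 50 for VXN in HT29, 30 to 37 for VXN in t-hESC, 14 to 26 for BIX in t-hESC, 4 to 9 for VXN over BIX, 39 to 42 for the difference of the VXN effects and 39 to 44 for HT29 over t-hESC, and medians of 0.52 to 0.56 for VXN in HT29, 0.16 to 0.20 for VXN in t-hESC, 0.11 to 0.13 for BIX in t-hESC, 0.042 to 0.075 for VXN over BIX, 0.34 to 0.35 for the difference of the VXN effects and 0.25 to 0.28 for HT29 over t-hESC. The replicate numbers are shared between groups, but same-numbered libraries did not deviate together (correlations from -0.032 to 0.023), so they were not taken as pairs. A fit with the replicate block gave 50, 37, 22, 7, 42 and 44 calls in the same order of comparisons. No named family reversed under DESeq2, other size factors from genes, other filters, other fits or any library left out. With 2 libraries a group, small differences are limited by the number of libraries, and rare subfamilies by their counts, the lowest of which was 5.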
